A study of Mus with 10 samples.

Results

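*Ifng*, which encodes the effector cytokine interferon-γ (IFN-γ), and *Il12rb1* and *Il12rb2*, which encode the IL-12Rβ1 and IL-12Rβ2 chains of the IL-12 receptor, were followed in liver type 1 innate lymphoid cells (ILC1s). They are 3 of the 24564 genes of the deposited count table, were taken from it by gene name, and 3 of 3 passed the filter on low counts, which left 11463 genes to test. The 10 libraries came from freshly sorted liver ILC1s that were not stimulated after the sort. There were 5 libraries from Ncr1+/+ mice (C57BL/6) and 5 from Ncr1gfp/gfp mice, in which *gfp* replaces both copies of *Ncr1*, the gene of the activating receptor NKp46, on a C57BL/6 background. The study's mice were male or female and 6 to 8 weeks old. In these 10 libraries the Y-linked gene *Ddx3y* was at 133 to 171 CPM and *Xist*, which the inactive X of females expresses, had at most 20 counts. ILC1s of both genotypes were sorted as lineage-negative NK1.1+ CD49a+ CD49b- cells, but Ncr1+/+ cells were further gated with an antibody against NKp46 and Ncr1gfp/gfp cells by GFP, so that the gate differed with the genotype. The sources used here do not say whether each library came from 1 mouse or from pooled mice, and p-values therefore measure the spread between these libraries.

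ILC1s are tissue-resident lymphocytes of the liver that respond early to infection and are known for producing IFN-γ without prior priming. IL-12, which is made by macrophages and dendritic cells, binds a receptor of both chains, IL-12Rβ1 with its associated kinase TYK2 and IL-12Rβ2 with JAK2, and the kinases activate the transcription factor STAT4. STAT4 acts with T-bet on the *Ifng* locus, and IL-18, which signals through MyD88 and NF-κB, strongly adds to IFN-γ production when given with IL-12. IL-12Rβ1 also pairs with the IL-23 receptor chain, whereas IL-12Rβ2 is the chain particular to IL-12 and related cytokines. The comparison asks whether ILC1s that lack NKp46 hold more or less RNA of the cytokine and of the receptor that induces it.

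The total count per library ranged from 15796253 to 22623133. Levels below are CPM, counts per 1000000 counts of the TMM-normalized library size, and 3 counts correspond to between 0.132 and 0.190 CPM. *Ncr1* had between 1913 and 2144 CPM in Ncr1+/+ ILC1s and between 141 and 356 CPM in Ncr1gfp/gfp ILC1s, so that the targeted gene was lower in 5 of 5 Ncr1gfp/gfp libraries and still gave reads in each. *Klrb1c* (NK1.1) and *Itga1* (CD49a), which the sort selected for, were at 1194 to 1398 and 732 to 1012 CPM, while the B cell gene *Cd79a* did not exceed 8 counts. The summed CPM of 6 T cell markers was higher in 5 of 5 Ncr1gfp/gfp libraries, at 633 to 835 CPM against 460 to 579 CPM (two-sided exact permutation test, p = 0.00794, which is the lowest p that this design can reach). *Cd3g* (CD3γ) made up most of the sum and was 501 CPM in Ncr1+/+ and 687 CPM in Ncr1gfp/gfp ILC1s (log2 fold change 0.45, adjusted p = 0.00169, edgeR). *Cd3e* rose from 5.72 to 21.1 CPM (1.88, adjusted p = 0.00235) and *Cd8a* from 6.69 to 19.4 CPM (1.53, adjusted p = 0.0248), and both were called, while *Cd3d* was at 1.04 (adjusted p = 0.0527). The summed CPM of 7 NK cell markers was 137 to 217 CPM against 100.2 to 121 CPM (same exact test, p = 0.00794). *Itgam* (CD11b) rose from 49.4 to 96.0 CPM (log2 fold change 0.96, adjusted p = 5.59e-05, edgeR) and gave most of that difference. Of 6 tested NK cell markers, 5 were higher and 1 was lower, with a median log2 fold change of 0.40. *Itgam* was the 1 that passed, *Eomes* was at 0.52 and *Klra8* at 0.27, and the lower gene, *S1pr5*, was at -0.30. Of the ILC1 markers other than *Ncr1*, *Itga1* rose (0.32, adjusted p = 0.000481) and *Il7r*, the IL-7 receptor chain, fell (-0.97, adjusted p = 0.00773). NK cells and T cells also use *Ifng*, *Il12rb1* and *Il12rb2*, and the part of these markers in the results that follow was not tested. Hepatocyte markers were at 31.4 CPM in Ncr1+/+ replicate 1 and at 50.6 CPM in Ncr1gfp/gfp replicate 3, and at most 5.05 CPM in the other 8 libraries.

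The mean level of *Il12rb1* differed between the genotypes by less than the spread between Ncr1+/+ libraries. It is listed on chromosome 8 (plus strand, 73332348 to 73345322), with an exon length of 2872 bases, in coordinates given as listed, since the table names no genome build. Its CPM was 198, 185, 188, 221 and 213 in replicates 1 to 5 of Ncr1+/+ ILC1s and 190, 200.01, 191, 176 and 199 in replicates 1 to 5 of Ncr1gfp/gfp ILC1s. The groups overlapped over most of their range, and only Ncr1gfp/gfp replicate 4 lay below every Ncr1+/+ library. The mean was 191 ± 9.60 CPM in Ncr1gfp/gfp and 201 ± 15.7 CPM in Ncr1+/+ ILC1s (mean ± SD of 5 libraries each). The log2 fold change was -0.07 (SE 0.06), with a Benjamini-Hochberg adjusted p = 0.757 over all tested genes in the quasi-likelihood test of edgeR. Its 95% interval runs from a ratio of 0.868 to 1.04 of Ncr1gfp/gfp to Ncr1+/+, and the two-sided exact permutation test of the mean CPM gave p = 0.294.

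*Il12rb2* was slightly higher in Ncr1gfp/gfp ILC1s, and the difference did not pass the test over all genes. The gene is listed on chromosome 6 (minus strand, 67242012 to 67326131), with an exon length of 3043 bases. Its CPM was 322, 336, 347, 304 and 302 in replicates 1 to 5 of Ncr1+/+ ILC1s and 339, 346, 373, 338 and 369 in replicates 1 to 5 of Ncr1gfp/gfp ILC1s. All 5 Ncr1gfp/gfp libraries lay above the median of the Ncr1+/+ libraries, 2 of them (replicates 3 and 5) lay above every Ncr1+/+ library, and the groups overlapped in between. The mean was 353 ± 16.7 CPM against 322 ± 19.7 CPM (mean ± SD of 5 libraries each), a ratio of 1.10 with a 95% interval from 1.01 to 1.19. The log2 fold change was 0.13 (SE 0.05, unadjusted p = 0.0261, adjusted p = 0.334 by edgeR), and the two-sided exact permutation test gave p = 0.0397.

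*Ifng* had the largest difference of the 3 genes, in the direction of a lower level in Ncr1gfp/gfp ILC1s, and narrowly missed the threshold over all genes. The gene is listed on chromosome 10 (plus strand, 117878102 to 117882950), with an exon length of 1210 bases. Its CPM was 197, 174, 165, 203 and 133 in replicates 1 to 5 of Ncr1+/+ ILC1s and 104, 119, 122, 175 and 123 in replicates 1 to 5 of Ncr1gfp/gfp ILC1s. In 4 of the 5 Ncr1gfp/gfp libraries *Ifng* was below every Ncr1+/+ library, but replicate 4 lay inside the Ncr1+/+ range and was as high as Ncr1+/+ replicate 2. The mean was 129 ± 27.0 CPM in Ncr1gfp/gfp against 175 ± 28.0 CPM in Ncr1+/+ ILC1s (mean ± SD of 5 libraries each), or 73.6% of the Ncr1+/+ level. The log2 fold change was -0.44 (SE 0.12, unadjusted p = 0.00116, adjusted p = 0.0683 by edgeR), and the two-sided exact permutation test of the mean CPM gave p = 0.0317. The 95% interval of the ratio was 0.622 to 0.872. In bulk libraries, fewer cells with *Ifng* RNA and less *Ifng* RNA per cell cannot be told apart.

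Whether the adjusted p-value of *Ifng* fell under 0.05 varied with the library left out. With all 10 libraries kept it also varied with the fit, and was for example 0.0190 in the likelihood ratio test of edgeR. Without Ncr1gfp/gfp replicate 4, the highest of its group, the log2 fold change was -0.58 (adjusted p = 0.00386, the edgeR quasi-likelihood test). Without Ncr1+/+ replicate 5, the lowest of its group, it was -0.52 (adjusted p = 0.0147, same test), and both values also passed the fold threshold of 0.7. When each of the other 8 libraries was left out in turn, the adjusted p-value stayed above 0.05, up to 0.199 without Ncr1+/+ replicate 4. The direction was the same in every one of these 10 fits.

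**Figure D1:**
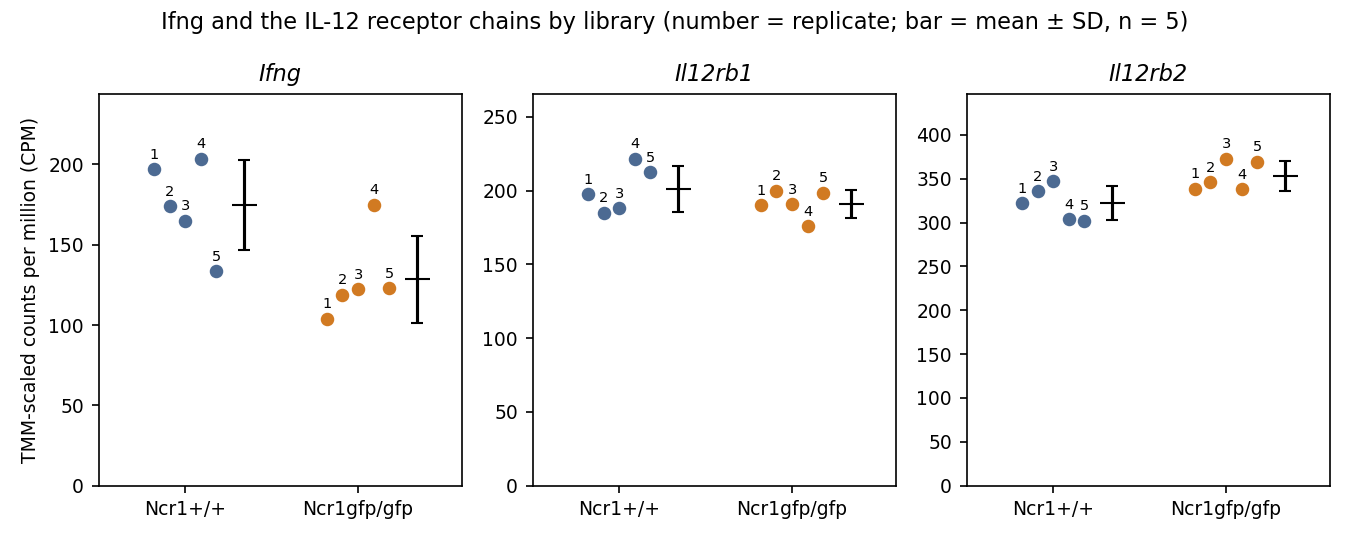
TMM-scaled CPM of *Ifng*, *Il12rb1* and *Il12rb2* in each Ncr1+/+ (blue) and Ncr1gfp/gfp (orange) library, each axis starting at 0, with the replicate number above each point and the mean ± SD (n = 5) in black. Ncr1gfp/gfp replicate 4 stands at 175 CPM of *Ifng*, apart from the other 4 at 104 to 123 CPM, while the *Il12rb1* points of both genotypes overlap widely and the *Il12rb2* points of Ncr1gfp/gfp, from 338 CPM up, lie above 4 of the 5 Ncr1+/+ libraries.

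Across the table, 84 of the 11463 tested genes were called, a share of 0.733%, with 23 higher and 61 lower in Ncr1gfp/gfp ILC1s. A call took a fold change above 1.5 or below 0.7 together with an adjusted p-value under 0.05, as the study's methods set it. Over all tested genes, 50.7% were higher and 49.3% lower. An adjusted p-value under 0.05 with any fold change was reached by 1.35% of them (65 higher and 90 lower), non-overlapping CPM between the genotypes by 3.11%, and an unadjusted p-value under 0.05 by 11.4%. Of *Ifng*, *Il12rb1* and *Il12rb2*, 0 met the first 3 of these rules in the edgeR quasi-likelihood test, and 2 (*Ifng* and *Il12rb2*) had an unadjusted p-value under 0.05, in opposite directions.

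The 3 genes also differed in how much they varied between libraries of the same genotype. The coefficient of variation of CPM was 16.0% for *Ifng* in Ncr1+/+ and 21.0% in Ncr1gfp/gfp ILC1s. For *Il12rb1* it was 7.81% and 5.03%, and for *Il12rb2* 6.12% and 4.72%. Counting error alone, which leaves out the noise of amplification, gives between 1.57% and 2.47% at the 1636 to 4031 counts of *Ifng* per library, and at most 1.84% and 1.37% for the receptor chains.

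Levels of different genes can be compared only per length. Divided by exon length in kilobases, the mean level in Ncr1+/+ ILC1s was 144 ± 23.1 CPM per kb for *Ifng*, 106 ± 6.48 for *Il12rb2* and 70.0 ± 5.46 for *Il12rb1* (SD, n = 5). In Ncr1gfp/gfp ILC1s the means were 106 ± 22.3 CPM per kb for *Ifng*, 116 ± 5.48 for *Il12rb2* and 66.5 ± 3.34 for *Il12rb1*. *Ifng* was above *Il12rb2* within 5 of 5 Ncr1+/+ libraries and within 1 of 5 Ncr1gfp/gfp libraries, again replicate 4, and in Ncr1gfp/gfp ILC1s the means of these neighbours did not differ beyond their spread. *Il12rb2* was above *Il12rb1* within all 10 libraries. Per length, the ratio of *Il12rb2* to *Il12rb1* was 1.53 ± 0.21 in Ncr1+/+ libraries (range 1.29 to 1.74) and 1.75 ± 0.09 in Ncr1gfp/gfp libraries (range 1.63 to 1.84). The ratio of *Ifng* to *Il12rb2* was 1.37 ± 0.24 (range 1.11 to 1.69) and 0.919 ± 0.215 (range 0.771 to 1.30), respectively. These ratios were formed after the levels were seen and are given without a test.

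Across the 10 libraries, no pair of the 3 genes had a correlation that passed the test. The pooled Pearson r of log2 CPM was 0.07 for *Ifng* and *Il12rb1* (two-sided permutation test, p = 0.841, n = 10), with a Spearman rho of -0.01 (p = 1.00). For *Ifng* and *Il12rb2*, r was -0.50 (p = 0.140) and rho was -0.59 (p = 0.0799). For *Il12rb1* and *Il12rb2*, r was -0.58 (p = 0.0790) and rho was -0.31 (p = 0.388). Adjusted over the 3 pairs by the Benjamini-Hochberg method, the p-values of r were 0.841, 0.210 and 0.210, and the smallest of rho was 0.240. Since *Ifng* and *Il12rb2* lay in opposite directions between the genotypes, the values were also centred on the mean of their genotype. The r of *Ifng* and *Il12rb2* was then -0.05 (permutation p = 0.891), that of *Ifng* and *Il12rb1* was -0.29 (p = 0.412), and that of the receptor chains was -0.46 (p = 0.173). Without the 2 libraries farthest from the median on the first gene of each pair, r was -0.49 for *Ifng* and *Il12rb1*, -0.43 for *Ifng* and *Il12rb2* and -0.52 for the receptor chains (permutation p from 0.187 to 0.292). Correlations within a single genotype, with 5 libraries each, were not computed.

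**Figure D2:**
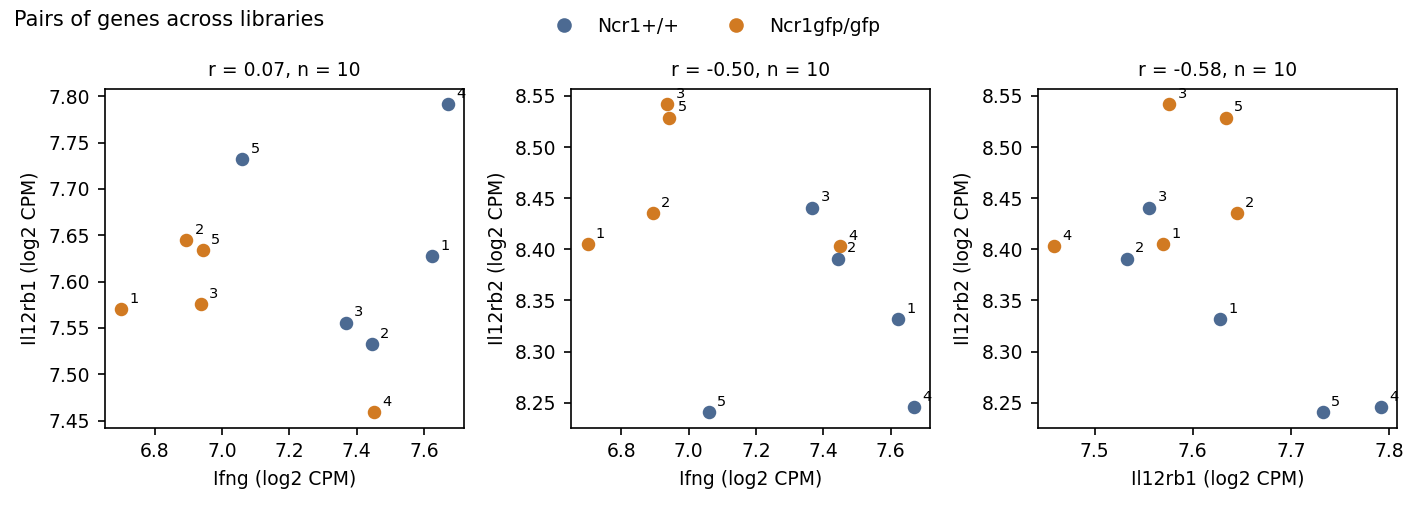
Log2 CPM of each pair of *Ifng*, *Il12rb1* and *Il12rb2*, 1 point per library with its replicate number, Ncr1+/+ in blue and Ncr1gfp/gfp in orange, and the pooled Pearson r above each panel. No pair forms a line in both genotypes, and in the middle panel r was -0.50 over all libraries and -0.05 after centring on the genotype.

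The ligand genes of the IL-12 family were at or near 0 counts in these cells. *Il12a* and *Il12b*, which encode the p35 and p40 subunits of IL-12, *Il23a* of IL-23, and *Il27* and *Ebi3* of IL-27 were all too low to be tested. *Il23a* and *Il27* had 0 counts in all 10 libraries, which allows up to 0.190 CPM in the shallowest. *Il12a* had 8 counts in Ncr1gfp/gfp replicate 4 and 0 in the other 9 libraries, and *Il12b* had 5 counts in Ncr1+/+ replicate 4 and 0 elsewhere. *Ebi3* did not exceed 9 counts.

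Among the related receptor chains, none that could be tested passed the threshold. *Il27ra* of the IL-27 receptor was at a log2 fold change of -0.07 (adjusted p = 0.780) and *Il6st*, which encodes the gp130 chain, of 0.13 (adjusted p = 0.849, the edgeR quasi-likelihood test). *Il23r*, whose product pairs with IL-12Rβ1 to bind IL-23, had 0 to 21 counts and was not tested.

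Of the signalling core between the receptor and *Ifng*, 0 of 4 genes passed the test in edgeR, and each mean was somewhat lower in Ncr1gfp/gfp ILC1s. *Tyk2*, the kinase at IL-12Rβ1, had 256 ± 23.2 CPM in Ncr1+/+ and 244 ± 13.7 CPM in Ncr1gfp/gfp ILC1s (mean ± SD of 5 libraries each), with a log2 fold change of -0.07 (adjusted p = 0.795, the edgeR quasi-likelihood test). *Jak2*, the kinase at IL-12Rβ2, had 569, 531, 595, 521 and 509 CPM in replicates 1 to 5 of Ncr1+/+ ILC1s and 493, 457, 487, 495 and 494 CPM in replicates 1 to 5 of Ncr1gfp/gfp ILC1s. Every Ncr1gfp/gfp library was thus below every Ncr1+/+ library for *Jak2*, by a log2 fold change of -0.17 whose adjusted p of 0.129 did not pass (edgeR). *Stat4* had 475 ± 34.3 and 439 ± 28.7 CPM (log2 fold change -0.11, adjusted p = 0.482), and *Tbx21*, which encodes T-bet, 452 ± 35.2 and 414 ± 24.5 CPM (log2 fold change -0.13, adjusted p = 0.399 in the same edgeR test). Per length, these genes stood at 52.5 CPM per kb for *Tyk2*, 108 for *Jak2*, 151 for *Stat4* and 177 for *Tbx21* in Ncr1+/+ ILC1s, so that the receptor chains at 70.0 and 106 CPM per kb lay within their range.

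Of the 12 tested genes of the IL-12 signalling list, 5 had a higher and 7 a lower level in Ncr1gfp/gfp ILC1s, with a median log2 fold change of -0.05 against 0.00 over all tested genes. *Socs3*, which encodes a feedback inhibitor of cytokine signalling, was the 1 gene of the list that passed. It was 33.6, 23.5, 28.6, 33.0 and 25.1 CPM in replicates 1 to 5 of Ncr1+/+ ILC1s and 13.8, 14.6, 19.1, 21.2 and 15.9 CPM in replicates 1 to 5 of Ncr1gfp/gfp ILC1s. *Socs3* fell by 0.76 on the log2 scale (adjusted p = 0.00404, edgeR), with no overlap between the groups and its highest Ncr1gfp/gfp value, like that of *Ifng*, in replicate 4.

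Of 32 tested regulators of *Ifng* transcription, 10 were higher and 22 lower, with a median log2 fold change of -0.05. None was called, and 4 fell with an adjusted p-value under 0.05. These were *Ets1* (log2 fold change -0.21, adjusted p = 0.0225), a T-bet cofactor, *Runx1* (-0.37, adjusted p = 0.0163), *Ikzf2* (-0.44, adjusted p = 0.00822), which encodes Helios, and *Junb* (-0.46, adjusted p = 0.0334), a subunit of AP-1 (the edgeR quasi-likelihood test). *Ikzf2* stayed under 0.05 in 18 of 18 alternative fits, *Runx1* in 16, *Ets1* in 13 and *Junb* in 8, and the largest adjusted p-value of *Junb*, 0.125, came without Ncr1+/+ replicate 1 and Ncr1gfp/gfp replicate 3. For 5 genes of the list every Ncr1gfp/gfp library was below every Ncr1+/+ library, where 3.11% of all tested genes did not overlap in either direction. These were *Ets1*, *Runx1*, *Ikzf2*, *Irf8* (log2 fold change -0.24, adjusted p = 0.0735) and *Rela* (-0.21, adjusted p = 0.0994, edgeR). *Eomes*, the T-bet paralog that marks NK cells, was low, at 10.2 ± 4.88 CPM in Ncr1gfp/gfp and 7.10 ± 1.08 CPM in Ncr1+/+ ILC1s (log2 fold change 0.52, adjusted p = 0.455).

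The inputs that add to IL-12 in inducing *Ifng* held most of the called genes. Of 15 tested genes, 6 were higher and 9 lower, and 3 were called lower. Both chains of the IL-18 receptor were among them, *Il18r1* with a log2 fold change of -1.10 (adjusted p = 5.59e-05) and *Il18rap* with -0.60 (adjusted p = 0.00145), beside *Il2ra* of the high-affinity IL-2 receptor with -1.24 (adjusted p = 7.08e-06, edgeR). *Il18rap* was 482, 432, 455, 471 and 368 CPM in replicates 1 to 5 of Ncr1+/+ ILC1s and 345, 225, 249.8, 313 and 323 CPM in replicates 1 to 5 of Ncr1gfp/gfp ILC1s, again without overlap. *Gadd45b*, which links IL-18 and IL-12 signals to p38, fell by 0.51 on the log2 scale (adjusted p = 0.0139), and its relative *Gadd45g* had -0.48 (adjusted p = 0.0807, edgeR). Per length, *Il18r1* went from 32.2 to 15.1 and *Il18rap* from 90.4 to 59.6 CPM per kb between Ncr1+/+ and Ncr1gfp/gfp ILC1s, whereas the 95% intervals of the ratio for *Il12rb1* and *Il12rb2* reached from 0.868 at the lowest to 1.19 at the highest.

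Of the 9 tested regulators of *Ifng* mRNA decay, 5 were higher and 4 lower, and *Zfp36*, which encodes tristetraprolin, was called. *Zfp36* was 269, 204, 162, 176 and 134 CPM in replicates 1 to 5 of Ncr1+/+ ILC1s and 128, 140, 113, 131 and 120 CPM in replicates 1 to 5 of Ncr1gfp/gfp ILC1s. It fell by 0.58 on the log2 scale (adjusted p = 0.0179, edgeR), with an overlap at Ncr1+/+ replicate 5. The call was lost without Ncr1+/+ replicate 1 (log2 fold change -0.42, adjusted p = 0.0322), without Ncr1gfp/gfp replicate 3 (-0.54, adjusted p = 0.0540) and without both together (-0.38, adjusted p = 0.0860, edgeR). It was also lost in DESeq2 (-0.58, adjusted p = 0.0593) and in limma-voom (-0.49, adjusted p = 0.0247). As background, tristetraprolin destabilises AU-rich mRNAs such as that of *Ifng*.

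In all, the lists held 129 genes of the pathway besides *Ifng* and the receptor chains, of which 115 were tested. None was called higher, in edgeR or in DESeq2, and 5 higher and 26 lower genes had an unadjusted p-value under 0.05. In edgeR, 5 genes (*Il18r1*, *Il18rap*, *Il2ra*, *Socs3* and *Zfp36*) were called lower. That is 4.35% of the tested pathway genes, beside 0.733% of all tested genes with their 23 higher and 61 lower calls. The lists were chosen with earlier results of these data known, so these shares are a description and cannot test the pathway. With no threshold on the fold change, 0 rose and 10 fell, beside 65 and 90 over all genes. *Il18r1*, *Il18rap*, *Il2ra* and *Socs3* kept their call in 18 of 18 alternative fits and *Zfp36* in 13. The median log2 fold change of the 115 genes was -0.05.

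**Figure D3:**
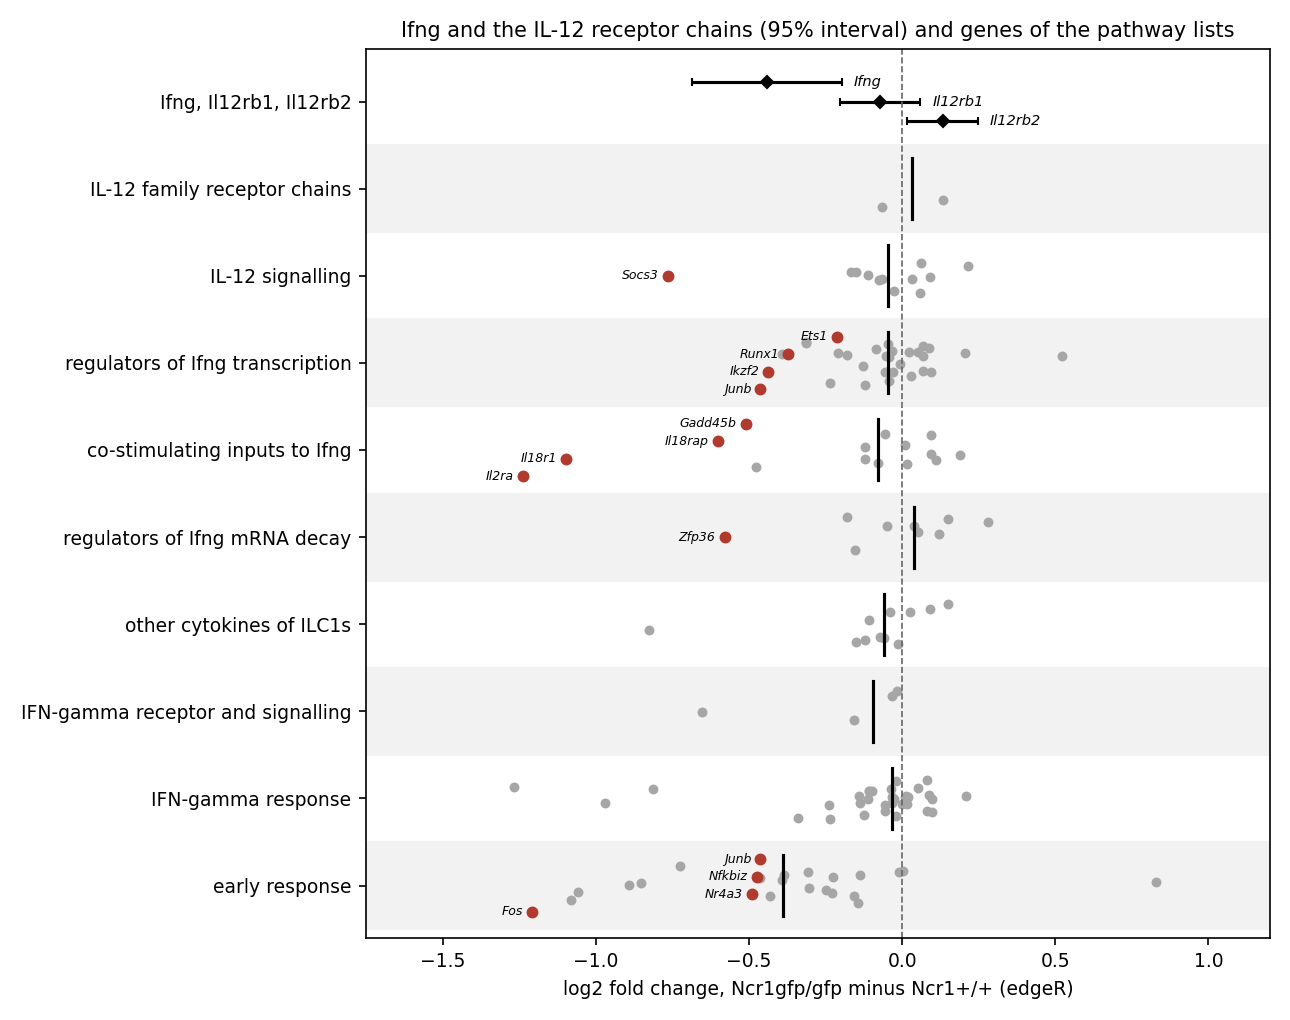
Log2 fold change, Ncr1gfp/gfp minus Ncr1+/+ (edgeR), of *Ifng*, *Il12rb1* and *Il12rb2* with their 95% intervals (black diamonds) and of every tested gene of each list (1 point per gene, vertical position within a row arbitrary, black bar at the list median, red and named where the adjusted p-value was under 0.05). The named genes all lie left of 0, and *Ifng* at -0.44 lies among them without passing the threshold.

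Cytokines other than *Ifng* did not pass the test in either direction. Of 11 tested genes, 3 were higher and 8 lower, 1 had an unadjusted p-value under 0.05 and 0 passed in edgeR, DESeq2 or limma-voom, with a median log2 fold change of -0.06. *Tnf* had 35.6 ± 7.38 CPM in Ncr1gfp/gfp and 37.5 ± 3.50 CPM in Ncr1+/+ ILC1s (log2 fold change -0.07, adjusted p = 0.898, edgeR), with a 95% interval of the log2 fold change from -0.33 to 0.18. *Csf2*, which encodes GM-CSF, had 8.40 ± 2.10 and 8.66 ± 2.29 CPM (log2 fold change -0.04, adjusted p = 0.971). Whether *Ifng* and *Tnf* differed in their change was not tested.

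Downstream of the cytokine, neither gene of the IFN-γ receptor passed. *Ifngr1*, the ligand-binding chain, was at a log2 fold change of -0.16 (adjusted p = 0.330, edgeR). *Ifngr2* was near the limit of detection, at 0.67 and 0.42 CPM in Ncr1+/+ and Ncr1gfp/gfp ILC1s, whereas *Ifngr1* was at 357 and 321 CPM. Of 33 tested IFN-γ response genes, 11 were higher and 22 lower, and their median log2 fold change was -0.03. An adjusted p-value under 0.05 was reached by 0 of them in the quasi-likelihood fit of edgeR, by 3 in DESeq2 (*Iigp1*, *Irf8* and *Serpina3g*) and by 2 in limma-voom (*Irf8* and *Serpina3g*). In edgeR, *Irf8* was at a log2 fold change of -0.24 (adjusted p = 0.0735) and *Serpina3g* at -0.24 (adjusted p = 0.0758). An unadjusted p-value under 0.05 was reached by 9 of the 33 in edgeR, where 11.4% of all tested genes reached it. Of these 9, only *Gbp8* (0.21) was higher in Ncr1gfp/gfp ILC1s. *Iigp1*, an IFN-γ-inducible GTPase, was 6.43 ± 2.37 CPM in Ncr1+/+ and 2.66 ± 0.823 CPM in Ncr1gfp/gfp ILC1s (log2 fold change -1.27, adjusted p = 0.0634, edgeR). It was called lower in 5 of 18 alternative fits, DESeq2 (adjusted p = 0.00937) among them. *Irf1*, a transcription factor that IFN-γ induces, had 475 ± 21.5 CPM in Ncr1gfp/gfp and 486 ± 37.5 CPM in Ncr1+/+ ILC1s (mean ± SD of 5 libraries each).

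Early response genes, which are induced within a short time of activation or of tissue handling, were counted because *Ifng* RNA is itself inducible. Of 24 tested genes, 22 were lower and 2 higher in Ncr1gfp/gfp ILC1s, where 49.3% of all tested genes were lower. Their median log2 fold change was -0.39, against 0.00 over all genes. *Fos* (log2 fold change -1.21, adjusted p = 0.0377) was called, and *Junb*, *Nfkbiz* (-0.47, adjusted p = 0.00393) and *Nr4a3* (-0.49, adjusted p = 0.0175) also fell (edgeR). *Fos* kept its call in 7 of 18 alternative fits, and its adjusted p-value was 0.125 without Ncr1+/+ replicate 1 (log2 fold change -0.99), 0.114 without Ncr1+/+ replicate 2 and 0.107 in DESeq2. The summed CPM of the 24 genes was 3258 to 5728 in Ncr1+/+ and 3190 to 3766 in Ncr1gfp/gfp libraries (two-sided exact permutation test, p = 0.0476). It was lowest in Ncr1+/+ replicate 5 among the Ncr1+/+ libraries and highest in replicate 4 among the Ncr1gfp/gfp libraries, the same libraries that were lowest and highest for *Ifng*.

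Over the 10 libraries, the log2 CPM of *Ifng* and the log2 of this sum had a Pearson r of 0.78 (permutation p = 0.00720, 0.0216 adjusted over the 3 genes) and a Spearman rho of 0.68 (p = 0.0356, adjusted 0.107). Centred on the genotype mean, r was 0.61 (permutation p = 0.0610, adjusted 0.183) and rho was 0.59 (p = 0.0812, adjusted 0.157). Without Ncr1+/+ replicates 1 and 2, the libraries farthest from the median of the sum, r was 0.77 (permutation p = 0.0246, adjusted 0.0737). The rho was then 0.52 (permutation p = 0.198, adjusted 0.594). For *Il12rb1* and *Il12rb2* the pooled r was -0.04 and -0.37 (permutation p = 0.288 for the latter). This relation was picked once the values were known, and its part in the genotype difference of *Ifng* was not tested.

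**Figure D4:**
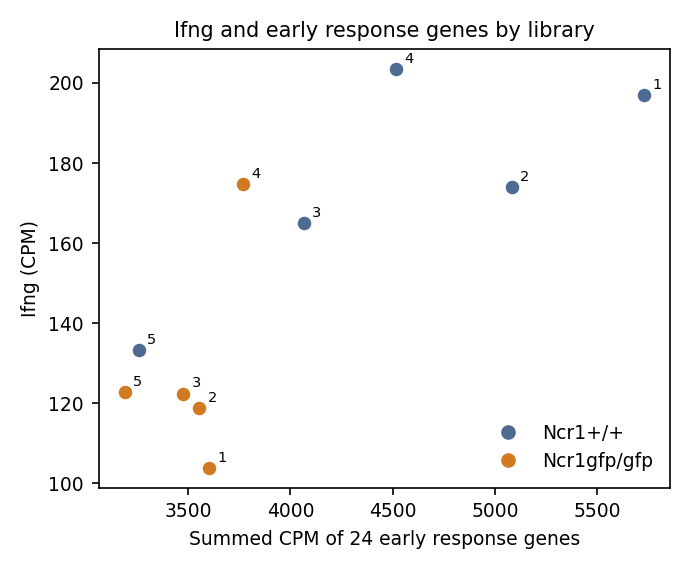
*Ifng* in CPM against the summed CPM of 24 early response genes, 1 point per library with its replicate number, Ncr1+/+ in blue and Ncr1gfp/gfp in orange. Ncr1+/+ replicate 5 lies with the Ncr1gfp/gfp libraries at low values of both, and Ncr1gfp/gfp replicate 4 is the highest of its genotype on both axes.

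The genes whose log2 CPM followed each gene most closely over the 10 libraries were taken from all tested genes as a description. For *Ifng* they were *Xpnpep1*, *Bag6*, *Wasf2*, *Arhgap15* and *Socs3*, with Pearson r from 0.89 to 0.95. For *Il12rb1* they were *Smoc1*, *Cisd1*, *Arap3*, *Tor3a* and *Rnf157* (r from 0.85 to 0.88), and for *Il12rb2* *Serac1*, *Tbl1xr1*, *Kcnj8*, *Nedd4* and *Hnrnph3* (r from 0.90 to 0.96). *Socs3* was the 1 gene of these 15 that was called between the genotypes. The libraries share a depth and a preparation across genes, and the highest of 11463 coefficients are large by selection.

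The neighbours of each gene in the table showed no change that passed the test. On the far side of a gap of 56141 bases from *Ifng* lies *Ifngas1*, a noncoding RNA gene on the opposite strand, which does not overlap *Ifng* and had 0 to 34 counts per library, too few to test. *Il22* and *Iltifb*, cytokine genes on the other side, had 0 counts in every library, and *Dyrk2*, the next gene beyond *Ifngas1*, was at a log2 fold change of -0.22 (adjusted p = 0.262, edgeR). Beside *Il12rb1*, *Mast3* had -0.04 (adjusted p = 0.836) and *Arrdc2* -0.38 (adjusted p = 0.379), and *Mir7240* had at most 1 count. Beside *Il12rb2*, *Serbp1* was at a log2 fold change of 0.05 (adjusted p = 0.813) and *Il23r* was too low to test.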

How the data were processed

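Libraries of sorted liver ILC1s were made by the authors with SMART-Seq v4 (2 ng of RNA) and sequenced as single reads of 51 cycles. Reads were trimmed by the authors with Trimmomatic and FASTP, mapped to mm10 with STAR (version 020201), counted per gene with HTSeq 0.6.0 and deposited as counts without normalization. The coordinates in the table are not those of mm10 and are given as listed. The kit does not mark strand, so sense and antisense reads cannot be told apart where genes overlap.

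Genotypes were taken from the labels of the samples. Low counts were removed by filterByExpr, and TMM-normalized genes were tested over the whole table with edgeR 4.0.16 (R 4.3.3, quasi-likelihood test, Benjamini-Hochberg adjustment, genotype only). A call took a fold change above 1.5 or below 0.7 with an adjusted p-value under 0.05. Log2 CPM used a prior count of 2. Single values were compared by a two-sided exact permutation test in scipy 1.17.1. Correlations were tested with 100000 random permutations in numpy 2.4.6. DESeq2 1.42.0, limma 3.58.1, other filters, a replicate block and leaving out libraries were the alternatives. No 2 libraries of a genotype agreed within sampling noise.

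*Ifng*, *Il12rb1*, *Il12rb2* and the lists were chosen with earlier results of these data known. Named genes were these 3, *Tyk2*, *Jak2*, *Stat4*, *Tbx21*, every list gene with an adjusted p-value under 0.05 (markers included), the markers that check the cell type, the 5 genes most correlated with each of the 3, and their nearest neighbours in the table. Further genes (*Il27ra*, *Il6st*, *Eomes*, *Irf8*, *Rela*, *Gadd45g*, *Tnf*, *Csf2*, *Ifngr1*, *Ifngr2*, *Irf1*, *Iigp1*, *Serpina3g*, *Gbp8*, *Dyrk2*, *Mast3*, *Il23r*, *Cd3d*, *Cd5*, *Cd79a*, *S1pr5*, *Klra8*, *Ddx3y*, *Xist* and the ligands) were named after their values were seen.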

Additional observations from a re-analysis of the deposited data

Results flagged for a closer look

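Among 64 groups of 5 libraries examined (3 genes, core and list genes that passed, and marker sums, in each genotype), 6 held a library that stood far from the other 4, where chance flags about 1 in 20 groups, or 3.2 of 64. *Ifng* was 175 CPM in Ncr1gfp/gfp replicate 4, against 123 CPM in the next library of its genotype. *Jak2* was lowest in Ncr1gfp/gfp replicate 2, at 457 CPM against 487 CPM in the next. The summed NK cell markers were highest in Ncr1+/+ replicate 5, at 121 CPM against 106 CPM, and so were the summed B cell markers in the same library, at 1.63 CPM against 0.45 CPM. The summed hepatocyte markers were highest in Ncr1+/+ replicate 1, at 31.4 CPM against 5.05 CPM, and in Ncr1gfp/gfp replicate 3, at 50.6 CPM against 4.94 CPM.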

How the results depend on the processing

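The log2 fold change of *Ifng* kept its direction in all 18 alternatives. Its adjusted p-value passed 0.05 with the likelihood ratio test (log2 fold change -0.44, adjusted p = 0.0190), with no filter on low counts (-0.44, 0.00193), with at least 10 counts in every library (-0.44, 0.0458) and with the replicate number as a block (replicate block, -0.45, 0.0220), and the cause was not tested. Among these, the fold change stayed short of the threshold for a call. With each library left out, the values lay between -0.58 and -0.38 (adjusted p from 0.00386 to 0.199). *Il12rb1* and *Il12rb2* stayed on the same side of the threshold in all alternatives, at -0.10 to -0.03 and 0.11 to 0.16 with each library left out. Libraries of the same replicate number were not alike over all genes (correlation of deviations between -0.02 and 0.04). That value cannot settle whether they were handled together. The replicate block called 87 genes against 84. The number of pathway genes called was 10 with no fold change threshold and 4 to 7 otherwise. The correlation of *Ifng* and *Il12rb1* turned negative when centred on genotype (-0.29) and without the 2 farthest libraries (-0.49), and ran from -0.35 to 0.26 with each library left out, that of *Ifng* and *Il12rb2* from -0.70 to -0.34, and that of *Il12rb1* and *Il12rb2* from -0.69 to -0.37 (the weakest of both without Ncr1+/+ replicate 4), and none of these passed. The likelihood ratio test called 138 and the table without a filter 131 of all genes, and DESeq2 126. Leaving out the libraries high in hepatocyte markers, chosen after seeing the data, gave -0.38 for *Ifng* (adjusted p = 0.238). The ligands, *Il23r* and *Ifngas1* had too few counts to be tested.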

Other observations

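*Il12a*, the gene of the p35 subunit of IL-12, had 8 counts in Ncr1gfp/gfp replicate 4, the library of that genotype with the most *Ifng*, and 0 in the other 9 libraries. *Cd5*, a T cell marker, had 47 counts in the same library and at most 12 in each of the others. *Ifngas1* had 7, 7, 34, 19 and 4 counts in replicates 1 to 5 of Ncr1+/+ ILC1s and 9, 0, 1, 9 and 6 counts in replicates 1 to 5 of Ncr1gfp/gfp ILC1s, so that the groups overlapped. These values were picked after they were seen and have no test.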
